A study of Mus musculus with 10 samples.

Results

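The mouse genes whose symbols begin with Mrpl or Mrps and a digit are named for proteins of the mitochondrial ribosome. The symbol names the large subunit for 47 of them and the small subunit for 30. Subunits below are those of the symbols, and the place of each protein in the ribosome was not checked. The symbols were read in the GENCODE annotation of mouse genome build mm9, where 77 of the 22380 genes marked as protein-coding matched. The rule used no measured value. One of the 77, Mrps36-ps1, is named as a pseudogene but annotated as protein-coding, and was kept.

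Genome-wide lists of regions enriched for trimethylated lysine 27 of histone H3 (H3K27me3) were compared in 5 lymphoma lines, in search of chromatin differences that accompany resistance to mafosfamide, a DNA-alkylating drug. All lines were Eμ-Myc Cdkn2a-/- B cells of the C57BL/6J strain, in which an immunoglobulin heavy chain enhancer drives Myc and the Cdkn2a tumor suppressor locus is deleted. The parental line had no mafosfamide. R100 was harvested after 10 days in an escalating dose, at 100 nM mafosfamide, R500 after 18 days at 500 nM, R1000 after 23 days at 1000 nM and R4000 after 37 days at 4000 nM, and all lines were grown without the drug for chromatin immunoprecipitation. Each resistant line was isolated as a clone during a gradual dose escalation of the same parental line, with 1 line per dose. The lines taken at higher doses came from a culture that had passed through the lower doses. Dose, days in culture and the history of each derived line therefore cannot be told apart. There is 1 peak list per line, hence no replicate error and no test between lines. Intervals given for shares are 95% Wilson intervals and cover the counting of genes only.

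The mitochondrial ribosome is built from nucleus-encoded proteins, imported from the cytoplasm, and from RNA made inside the organelle. It translates the few messenger RNAs of the mitochondrial genome, which encode core subunits of the respiratory chain and the ATP synthase. H3K27me3 is deposited by Polycomb repressive complex 2 and is best known from broad domains over silent developmental genes, whereas ribosomal genes of both compartments are housekeeping genes.

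The parental list held 10778 peaks, that of R100 25180, R500 21888, R1000 9595 and R4000 6820. They covered 1.63, 5.04, 4.53, 1.61 and 1.07 Mb, and the median width was 100 bp in every list. Read depth is unknown. The 40 annotated entries of Hox genes, classical Polycomb targets, served as a check of the lists, and 23, 33, 33, 24 and 18 of them were covered in the parental, R100, R500, R1000 and R4000 lines, where covered means at least 150 bp of peaks within 2 kb of the transcription start site (TSS) on both sides together. Of 7 B cell genes, 0, 3, 2, 2 and 2 were covered in the same order (0, 42.9, 28.6, 28.6 and 28.6%). None of 6 genes of other cell types was covered in any line. The shares of all protein-coding genes were 5.25, 17.4, 13.3, 6.92 and 5.5%. Both marker sets are small, and their differences from all genes were not tested. The lists do not measure expression, so they cannot show whether a cell expresses these markers. Cdkn2a, deleted in every line, had no covered base in any list.

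The stretches of DNA that peaks of more than 1 line share show best where the mark was called at these genes. Sequences are given for the Mrpl and Mrps genes with a base covered in at least 3 lines or with an unbroken stretch of at least 100 bp covered in 2 lines, and for 1 cytosolic ribosomal gene, Rpl3, whose peaks shared the longest stretch in all 5 lines among those that could be shown. They were read from mm9 in the direction of transcription, 5′ to 3′, and CpG dinucleotides are in capitals. The Mrpl51 stretch (chr6:125141901-125142000, plus strand, R100, R500 and R4000) lies in an annotated exon from 82 to 181 bp after the TSS. The Mrpl23 stretch (chr7:149719151-149719200, plus strand, R100, R500 and R1000) is intronic, from 447 to 496 bp. The Mrpl28 stretch (chr17:26260551-26260700, plus strand) is coding over all 150 bp, from 86 to 235 bp. It was covered in R100 throughout, in R1000 over the first 100 bp and in R500 over the last 50 bp.
Mrpl51: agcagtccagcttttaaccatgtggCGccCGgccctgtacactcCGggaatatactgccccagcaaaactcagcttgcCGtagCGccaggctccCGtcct
Mrpl23: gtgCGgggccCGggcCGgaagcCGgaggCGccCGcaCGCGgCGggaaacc
Mrpl28: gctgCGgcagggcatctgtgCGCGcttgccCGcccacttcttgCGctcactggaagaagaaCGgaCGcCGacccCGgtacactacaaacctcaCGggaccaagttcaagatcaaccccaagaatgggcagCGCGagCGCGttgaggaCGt
The Mrps25 stretch (chr6:92133751-92133900, minus strand, R100 and R500) runs from 127 to 276 bp after the TSS, with 67 coding bases followed by intron. The Mrps33 stretch (chr6:39760501-39760600, minus strand, R100 and R500) is intronic, from 387 to 486 bp. The Rpl3 stretch (chr15:79913201-79913450, minus strand, all 5 lines) is intronic, from 386 to 635 bp.
Mrps25: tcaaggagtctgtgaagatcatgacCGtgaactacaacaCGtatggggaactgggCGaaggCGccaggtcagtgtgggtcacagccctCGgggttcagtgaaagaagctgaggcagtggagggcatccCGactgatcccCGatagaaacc
Mrps33: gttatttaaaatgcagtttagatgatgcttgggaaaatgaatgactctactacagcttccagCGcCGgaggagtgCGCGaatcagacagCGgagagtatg
Rpl3: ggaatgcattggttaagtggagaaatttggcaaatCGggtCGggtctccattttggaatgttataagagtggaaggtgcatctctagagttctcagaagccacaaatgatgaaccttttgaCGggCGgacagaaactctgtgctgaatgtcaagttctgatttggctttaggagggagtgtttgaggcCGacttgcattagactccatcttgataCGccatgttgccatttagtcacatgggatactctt
The 50 bp at Mrpl23 were 84.0% G and C with 9 CpG dinucleotides, whereas the 100 bp at Mrps33 were 46.0% G and C with 5, so the shared stretches were not alike in base composition. The Rpl3 stretch, 44.8% G and C, held 6 CpG dinucleotides in 250 bp. The shared stretches of Mrpl53 and Mrps18b are described by position only.

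None of the 77 Mrpl and Mrps promoters was covered in the parental line (0 to 4.75%), against 5.25% of all protein-coding genes. In R100, 16 of 77 were covered (20.8%, 13.2 to 31.1%), against 17.4% of all protein-coding genes. In R500 there were 7 (9.09%, 4.47 to 17.6%), against 13.3%. The shares of all protein-coding genes lay inside the intervals of the Mrpl and Mrps genes in R100 and R500 and above it in the parental line. In R1000 and in R4000, 2 of 77 were covered (2.60%, 0.715 to 8.98%), against 6.92% and 5.5% of all protein-coding genes. Short of 150 bp in the parental line but covered in R100, R500 or both were 18 genes (23.4%, 15.3 to 34.0%), against 14.3% of all protein-coding genes. The latter share lay just below the interval. No Mrpl or Mrps promoter was covered in all 5 lines, against 3.17% of all protein-coding genes, and 20 (26.0%) were covered in at least 1 line, against 20.1%.

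The cytosolic ribosomal protein genes, which encode the ribosome that translates nuclear messages, gave much larger shares. Of 76, R100 covered 57 (75.0%), R500 56 (73.7%), R1000 36 (47.4%) and R4000 42 (55.3%), and the parental line 9 (11.8%). In every line the interval of the cytosolic genes lay wholly above that of the Mrpl and Mrps genes. The nearest were those of the parental line, where the interval of the cytosolic genes began at 6.36% and that of the Mrpl and Mrps genes ended at 4.75%. Of the cytosolic genes 54 (71.1%) were covered in R100, R500 or both but not in the parental line, 7 (9.21%) were covered in all 5 lines and 69 (90.8%) in at least 1 line. With any covered base in place of 150 bp, 43 Mrpl and Mrps genes (55.8%) and 42 cytosolic genes (55.3%) were counted in R100, R500 or both but not in the parental line. The share of all protein-coding genes was 24.5%. A base in the parental line, which keeps a gene out of this count, was found at 27 cytosolic genes and 1 Mrpl or Mrps gene. The likeness of these shares is therefore not one of coverage in R100 and R500. The study's own promoter calls used the 5 kb before the TSS. There, 0, 5, 2, 2 and 1 Mrpl and Mrps genes were covered in the parental, R100, R500, R1000 and R4000 lines. Of the cytosolic genes 5, 7, 7, 2 and 2 were covered, against 3.64, 9.13, 8.16, 3.93 and 2.73% of all protein-coding genes. In R100 these were 6.49% of the Mrpl and Mrps genes and 9.21% of the cytosolic genes. The large difference found in R100 within 2 kb was thus not seen in that window. With the lists brought to an equal number of peaks, 9 Mrpl and Mrps genes were covered in R100 (11.7%) and 2 in R500 (2.60%), against 11.8 and 10.3% of all protein-coding genes and 49 and 48 cytosolic genes.

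**Figure D1:**
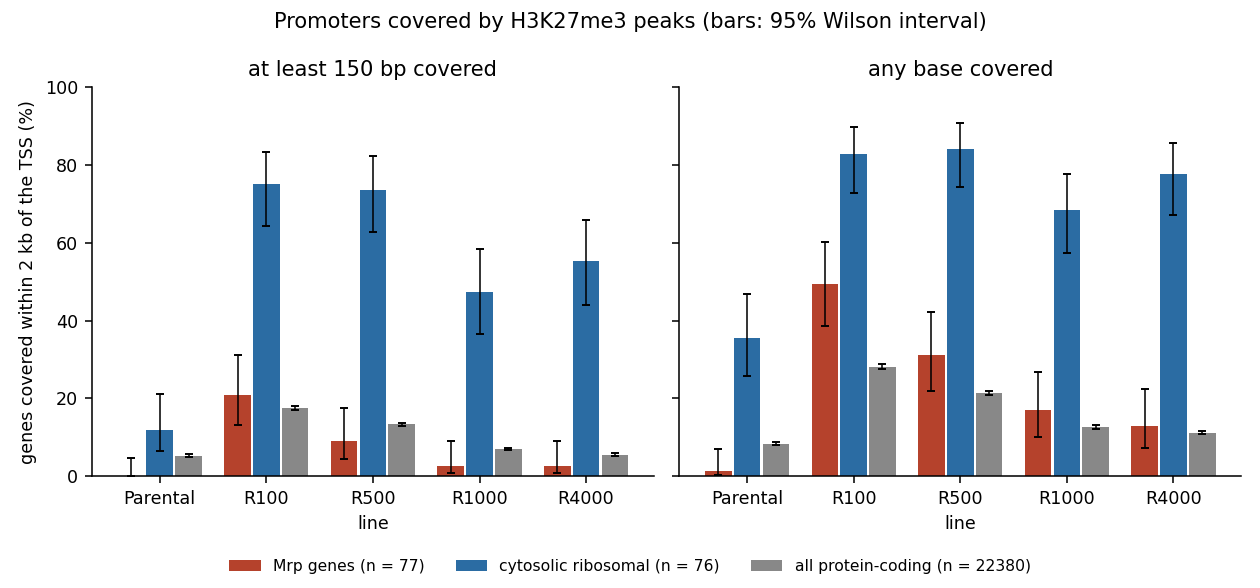
Share of genes (%) with at least 150 bp of H3K27me3 peaks (left) or any peak base (right) within 2 kb of the TSS in each line, for Mrpl and Mrps genes, cytosolic ribosomal genes and all protein-coding genes; error bars are 95% Wilson intervals over genes. The Mrpl and Mrps bars stay between 0 and 20.8% on the left, near those of all protein-coding genes, while the cytosolic bars reach 75.0% in R100.

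With any covered base counted, the Mrpl and Mrps genes no longer lay near the share of all genes in R100. Peaks lie on a grid of 50 bp, so any base means at least 1 short peak or the edge of a longer one. One gene, Mrps18b, had a covered base in the parental line, against 8.3% of all protein-coding genes. In R100, 38 did (49.4%, 38.5 to 60.3%), against 28.2%. In R500 there were 24 (31.2%, 21.9 to 42.2%), against 21.4%. In R1000 and R4000 there were 13 (16.9%) and 10 (13.0%), against 12.6% and 11.1%. Thus the share of all protein-coding genes lay below the interval in R100 and R500, and inside it in R1000 and R4000. Altogether 47 of the 77 had a base in at least 1 line (61.0%), against 34.9% of all protein-coding genes and 73 of the 76 cytosolic genes.

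The covered lengths were short. Of the 38 Mrpl and Mrps genes with a base in R100, 22 had 50 or 100 bp, whereas among the 63 cytosolic genes with a base there 6 did. Of the 6305 protein-coding genes with a base there, 2405 had less than 150 bp. The median covered length over all Mrpl and Mrps genes was 0 bp in every line, as it was over all protein-coding genes. Over the cytosolic genes it was 0, 350, 300, 100 and 150 bp in the parental, R100, R500, R1000 and R4000 lines. The longest coverage of any Mrpl or Mrps gene was 100, 750, 750, 250 and 150 bp in the same order. Summed over the 77 genes, peaks covered 100, 6250, 3315, 1250 and 850 bp, and over the 76 cytosolic genes 3700, 29177, 27400, 14350 and 14877 bp. Over all protein-coding genes, peaks covered 718, 2776, 2378, 940 and 675 kb. R100 thus had the largest sum in each case. The sum of the Mrpl and Mrps genes was smaller in R4000 than in R1000, as was that of all protein-coding genes. That of the cytosolic genes was not.

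Peaks in R100 and R500 differed gene by gene. Coverage was longer in R100 than in R500 at 28 Mrpl and Mrps genes, longer in R500 at 11, equal and above 0 at 5 and absent from both at 33. This comparison was not made over all protein-coding genes, of which 6305 had a base in R100 and 4793 in R500. Of the 16 genes covered in R100, 5 were also covered in R500 (31.3%, 14.2 to 55.6%), 1 in R1000 and 1 in R4000. Of all protein-coding genes covered in R100, 64.5% were also covered in R500, 37.3% in R1000 and 29.3% in R4000. Of the 57 cytosolic genes covered in R100, 50 were covered in R500 (87.7%), 32 in R1000 and 37 in R4000. For 11 of the 16 Mrpl and Mrps genes R100 was the only line with at least 150 bp, though several had 50 or 100 bp elsewhere. They were Mrpl16, Mrpl18, Mrpl28, Mrpl30, Mrpl39, Mrpl43, Mrpl44, Mrpl48, Mrpl49, Mrps34 and Mrps36. The share of such genes among all protein-coding genes was not counted.

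The large subunit joins amino acids into a chain, and the small subunit holds and decodes the messenger RNA. Among the 47 genes named for the large subunit, 0, 11, 2, 1 and 1 were covered in the parental, R100, R500, R1000 and R4000 lines. Among the 30 genes named for the small subunit, 0, 5, 5, 1 and 1 were covered. In R100 the shares were 23.4% (13.6 to 37.2%) and 16.7% (7.34 to 33.6%), and in R500 they were 4.26% (1.17 to 14.2%) and 16.7% (7.34 to 33.6%). The intervals of the subunits overlapped in both lines, and both held the share of all protein-coding genes, 17.4% in R100 and 13.3% in R500.

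**Figure D2:**
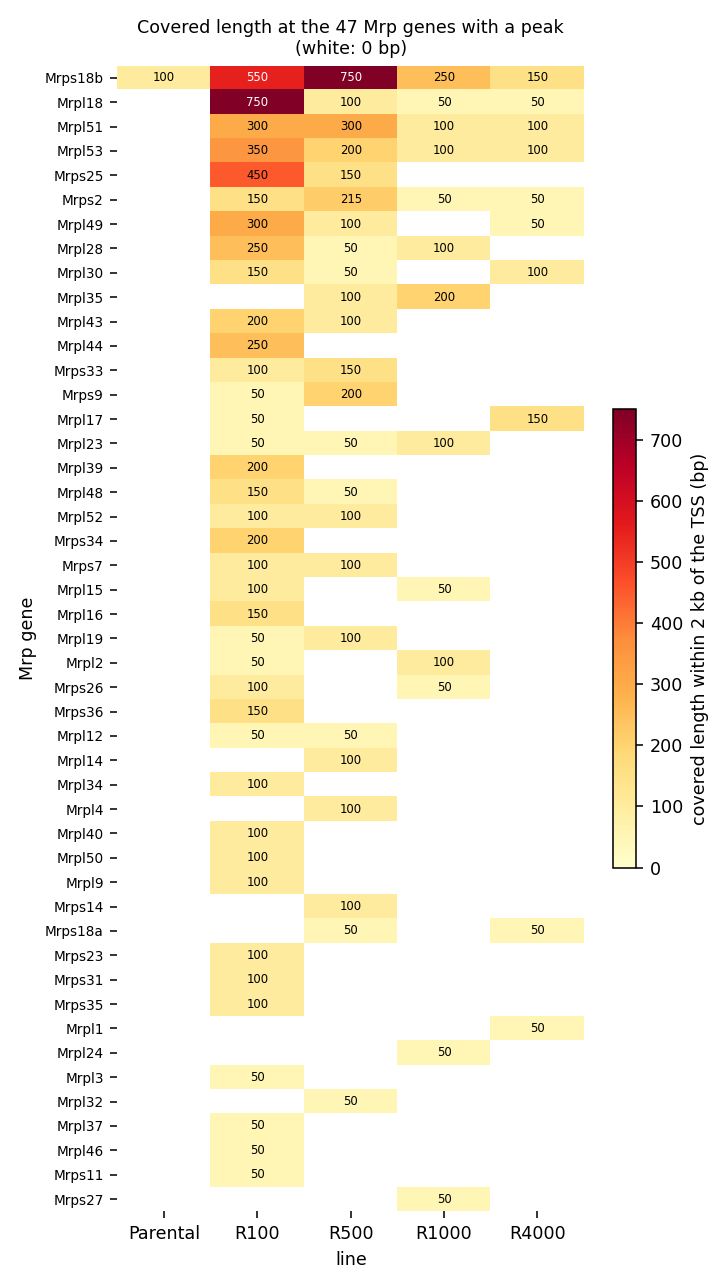
Covered length (bp) within 2 kb of the TSS at each of the 47 Mrpl and Mrps genes with a peak in any line, by line, ordered by the sum over lines; white cells are 0 bp. One cell is filled in the parental column, and most filled cells lie in the R100 and R500 columns, with the longest coverage at Mrps18b and Mrpl18.

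Within the large subunit, Mrpl18 (chr17:13104215-13109211, minus strand), which encodes a protein of the family that binds 5S ribosomal RNA in other ribosomes, had 0, 750, 100, 50 and 50 bp in the parental, R100, R500, R1000 and R4000 lines. Its longest peak, 500 bp in R100 (chr17:13109351-13109850), lay upstream of its TSS and was the second longest at any Mrpl or Mrps gene. The other R100 peak, 250 bp (chr17:13108601-13108850), lay nearer to the TSS of Tcp1, a chaperonin subunit gene 644 bp away. The 500 bp peak lay wholly outside Mrpl18, on the side of the Tcp1 TSS into which Tcp1 is read. Its centre was 389.5 bp from the Mrpl18 TSS and 1033.5 bp from the Tcp1 TSS. The upstream R100 peak shared 50 bp with the peak of R500 and 50 bp with that of R4000, at separate places, and the R1000 peak lay elsewhere.

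Mrpl51 and Mrpl53, on chromosome 6, encode proteins found in mitochondrial but not in bacterial ribosomes. Mrpl51 (chr6:125141819-125145601, plus strand) had 0, 300, 300, 100 and 100 bp. Its coverage fell into a pair of places, 1 near the TSS in R100, R500 and R4000 (the sequence above) and 1 further into the gene in R100, R500 and R1000. Mrpl53 (chr6:83059089-83059933, plus strand) had 0, 350, 200, 100 and 100 bp. Its R100 peak of 350 bp (chr6:83059251-83059600) began 162 bp after the TSS, and every other resistant line had a peak overlapping the first part of it. The stretch with 3 lines at each base (chr6:83059251-83059350) also overlaps the annotated gene Ccdc142. Mrpl51 and Mrpl53 were the only large subunit genes besides Mrpl18 with a covered base in all 4 resistant lines.

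Most of the remaining large subunit genes with long coverage had it in R100. Mrpl49, another gene without a bacterial counterpart, had 0, 300, 100, 0 and 50 bp, of which the R500 and R4000 peaks and 50 bp in R100 lay nearer to the TSS of Fau, a cytosolic ribosomal protein gene. Mrpl28, whose protein has a bacterial counterpart, had 0, 250, 50, 100 and 0 bp, all in coding sequence but for 6 bp of intron. Mrpl43 had 0, 200, 100, 0 and 0 bp, and Mrpl44, whose protein carries a ribonuclease III fold, had 0, 250, 0, 0 and 0 bp. The R100 peaks of Mrpl43 and Mrpl44 were nearer to the TSS of Peo1 and Wdfy1. Mrpl30 had 0, 150, 50, 0 and 100 bp at 3 positions that shared no base, and its R100 peak was nearer to the TSS of Mitd1. An exception was Mrpl35, with 0, 0, 100, 200 and 0 bp, the 200 bp of R1000 being 3 separate peaks of at most 100 bp. Another was Mrpl17, described below, which was covered in R4000 only.

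Within the small subunit, Mrps18b (chr17:36047324-36053334, minus strand) stood first by coverage, with 100, 550, 750, 250 and 150 bp in the parental, R100, R500, R1000 and R4000 lines. It was the only Mrpl or Mrps gene with a base in the parental list and the only one covered in 4 lines. Its longest peak (R500, chr17:36054051-36054800) was the longest at any of these genes. All its upstream peaks, in each of the 5 lines, lay nearer to the TSS of Ppp1r10, a gene for a regulatory subunit of protein phosphatase 1 that starts 45 bp away and is read in the opposite direction. Bases shared by R100, R500 and R1000 (chr17:36054201-36054300) lie inside Ppp1r10. Once peaks nearer to another gene were left out, Mrps18b kept 0, 250, 0, 0 and 0 bp. Its relatives of the same protein family differed, as Mrps18a had 50 bp in R500 and in R4000, and Mrps18c had no base in any line.

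Mrps25 (chr6:92119519-92134027, minus strand), a gene without a bacterial counterpart, had 0, 450, 150, 0 and 0 bp. The R500 peak lay wholly within the R100 peak of 350 bp (chr6:92133551-92133900), and the nearest TSS of another protein-coding gene was over 30 kb away. Mrps2 (chr2:28323586-28326698, plus strand), whose protein has a bacterial counterpart, had 0, 150, 215, 50 and 50 bp. Its coverage lay at a different place in every line, with no base shared, and the R100 peak was 73.5 bp from the TSS of the neighbouring gene 1700007K13Rik, measured from the peak centre. Mrps33 had 0, 100, 150, 0 and 0 bp and Mrps9 0, 50, 200, 0 and 0 bp. At both of these genes the R100 peak lay inside the R500 peak.

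Coverage in the more resistant lines at genes not covered in R100 was limited to a few. The 5 with the most bases in R1000 and R4000 among those not covered in R100 were Mrpl35, Mrpl17, Mrpl2, Mrpl23 and Mrpl1, the last tied at 50 bp with Mrpl15, Mrpl24, Mrps18a, Mrps26 and Mrps27 and taken by symbol. Mrpl17 had 0, 50, 0, 0 and 150 bp, Mrpl2 had 0, 50, 0, 100 and 0 bp, Mrpl23 had 0, 50, 50, 100 and 0 bp, and Mrpl1 had 0, 0, 0, 0 and 50 bp. Mrpl23 is the only one of the 5 at which 3 lines shared bases.

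The 30 genes with no covered base in any line came from both subunits. They included Mrps12, whose bacterial counterpart is part of the decoding site, Mrps5, Mrps6, Mrps10, Mrps15, Mrps16, Mrps17, Mrps22, Mrpl10, Mrpl11, Mrpl13, Mrpl20, Mrpl21, Mrpl22, Mrpl27, Mrpl33 and Mrpl36. Of the others, 23 had a base in 1 line, 15 in 2, 4 in 3, 4 in 4 and 1 in all 5.

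Peaks of different lines fell at the same bases at some Mrpl and Mrps genes and not at others. Of the 47 genes with a base, 23 had it in 1 line only and could share none. Of all 47, 13 (27.7%) had at least 1 base covered in 2 or more lines, 4 (Mrpl23, Mrpl51, Mrpl53 and Mrps18b) had one in 3 lines and none had one in 4. Of the 73 cytosolic genes with a base, 63 (86.3%) had one in 2 or more lines, 44 (60.3%) in 3 or more and 26 in 4 or more. Among all 7808 protein-coding genes with a base the shares were 43.8% for 2 or more and 24.1% for 3 or more. By length, 20.1% of the bases covered at Mrpl and Mrps genes were covered in 2 or more lines, against 58.8% at cytosolic genes and 47.3% at all protein-coding genes. Of 18 Mrpl and Mrps genes with a base in both R100 and R500, 11 shared a base between them. This was not counted for the cytosolic genes or all protein-coding genes. Covered lengths are shorter at the Mrpl and Mrps genes, so that fewer bases could be shared, and the part of this in the difference was not tested.

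**Figure D3:**
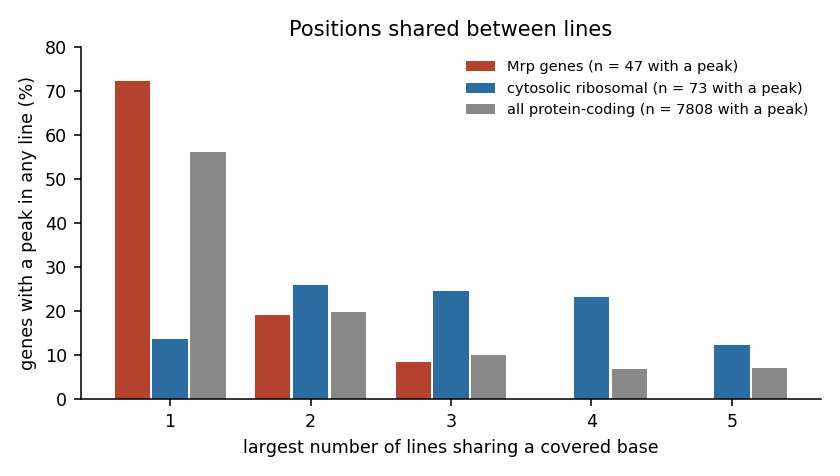
For genes with a peak base in any line, the share (%) by the largest number of lines that cover the same base within 2 kb of the TSS. The Mrpl and Mrps genes stand at 1 to 3 lines with none at 4 or 5, and the cytosolic genes extend to 5.

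Peaks at the Mrpl and Mrps genes were counted most often just inside the genes. None of the 100 peaks found at these genes over the 5 lists lay over the TSS, 70 were centred within the first 1 kb downstream and 30 upstream. Of the peaks 35 were 50 bp wide, 37 were 100 bp and 28 were at least 150 bp. At cytosolic genes, 308 of 358 peaks (86.0%) were centred within the first 1 kb downstream, none lay over the TSS and 215 were at least 150 bp wide. By length, 34.3% of the peaks at Mrpl and Mrps genes lay in introns, 31.3% in exons and 34.4% outside the gene. At cytosolic genes the shares were 53.1, 44.2 and 2.73%. These counts and shares of peaks were made for the Mrpl and Mrps genes and the cytosolic genes only. Coverage of all protein-coding genes also rose just inside the gene. In R100, 616 of 22380 were covered at the TSS itself (2.75%) and 1753 at 300 bp after it (7.83%).

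In R100, 31 of the 77 genes had a covered base in the first 1 kb downstream (40.3%), against 22.2% of all protein-coding genes and 62 of the 76 cytosolic genes. Upstream over the same distance there were 8 (10.4%), against 12.5% of all protein-coding genes and 6 cytosolic genes. In R500 the counts were 20 downstream (26.0%), against 16.3% and 61 cytosolic genes, and 6 upstream (7.79%), against 9.74% and 3 cytosolic genes. The share of Mrpl and Mrps genes with any base exceeded that of all genes downstream of the TSS and not upstream. This division of the window was chosen after the values had been seen.

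At single positions, read every 100 bp, coverage of the Mrpl and Mrps genes was highest 300 bp after the TSS in R100, at 12 genes (15.6%), and 200 bp after it in R500, at 10 genes (13.0%). All protein-coding genes were highest 300 bp after the TSS in both lines, at 7.83 and 5.55%. The cytosolic genes were highest further into the gene, with 57.9% in R100 at 500 bp after the TSS, 51.3% in R500 at 400 bp, 31.6% in R1000 at 600 bp and 34.2% in R4000 at 800 bp.

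**Figure D4:**
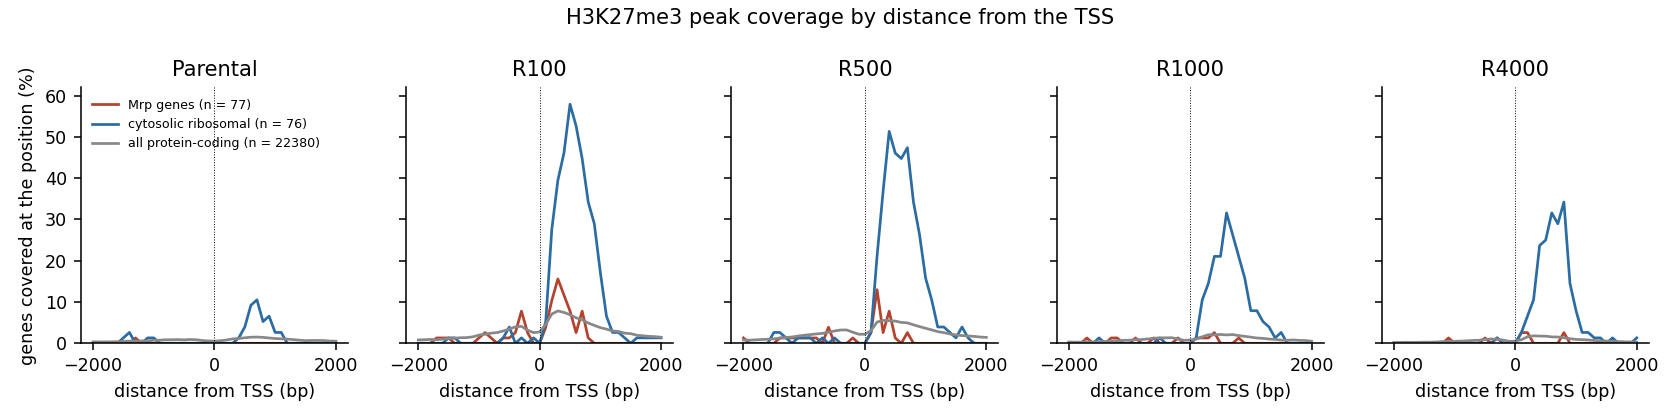
Share of genes (%) covered by a peak at each position from 2000 bp before to 2000 bp after the TSS, 1 panel per line. The Mrpl and Mrps genes show a low rise just after the TSS in R100 and R500, up to 15.6 and 13.0%, and almost none in the other lines, where the cytosolic genes still rise to between 10.5 and 34.2%.

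Many of the Mrpl and Mrps genes share their promoter region with a neighbour. Of the 77, 16 (20.8%) start within 1 kb of a gene read in the opposite direction away from them, against 7.01% of all protein-coding genes and 8 of the 76 cytosolic genes. A neighbour of any orientation started within 2 kb of 33 of them (42.9%), against 14.0% and 14 cytosolic genes. Accordingly 25 of the 100 peaks at Mrpl and Mrps genes lay nearer to the TSS of another protein-coding gene, against 23 of the 358 peaks (6.42%) at cytosolic genes. Without such peaks, 0, 12, 6, 1 and 1 Mrpl and Mrps genes were covered in the parental, R100, R500, R1000 and R4000 lines, against 4.97, 16.0, 12.5, 6.43 and 5.07% of all protein-coding genes. Mrpl46 and Mrps11, whose starts are 412 bp apart, had 1 peak of 50 bp in R100 that was counted for both.

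By chromosome, a division also chosen after the values had been seen, all 7 Mrpl and Mrps genes on chromosome 6 had a covered base in some line and 5 were covered. Of the 10 on chromosome 11, 3 had a base and none was covered. Among all protein-coding genes the share with a base was 41.9% on chromosome 6 and 43.0% on chromosome 11, and the share covered in at least 1 line was 29.3 and 26.0%. These are small numbers, and their difference was not tested.

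In G and C content the Mrpl and Mrps genes lay near all protein-coding genes. Within 1 kb of the TSS on both sides their median G and C content was 50.1%, against 51.1% for all protein-coding genes and 52.6% for cytosolic genes. The median ratio of observed to expected CpG was 0.596, 0.468 and 0.686. Those covered in R100 or R500 had a median G and C content of 53.1% and the others 49.4%, and all protein-coding genes covered in R100 had 56.4%. Among genes between 47.0 and 54.0% G and C, the middle range of the Mrpl and Mrps genes and a limit set after the values had been seen, 7 of 40 Mrpl and Mrps genes (17.5%) were covered in R100, against 14.4% of all protein-coding genes and 35 of 50 cytosolic genes (70.0%). In R500 there were 5 (12.5%), against 9.60% and 35. Within this range of base composition the share of cytosolic genes was again the larger.

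Short motifs were sought on both strands from 250 bp before to 50 bp after the TSS. The motif CCGGAAG, the core bound by ETS factors, was found at 27 of the 77 Mrpl and Mrps genes (35.1%), against 10.8% of all protein-coding genes and 22 of the 76 cytosolic genes (28.9%). GCGCATGC, the site of NRF1, a regulator of nuclear genes for mitochondria, was found at 7 (9.09%), against 3.30% and 3 cytosolic genes (3.95%). AAGATGGC, bound by YY1, was found at 12 (15.6%), against 3.29% and 5 cytosolic genes (6.58%). The E-box CACGTG, bound by Myc with its partner Max, was found at 6 (7.79%), against 7.78% and 9 cytosolic genes (11.8%). Of all protein-coding genes covered in R100, 10.3% held it. All 6 were among the 59 genes not covered in R100 or R500 (10.2%). None was among the 18 genes covered in R100 or R500 but not in the parental line, a small number, and the difference was not tested. CCGGAAG was found at 5 of these 18 genes (27.8%) and at 22 of the other 59 (37.3%). These matches describe letters in a window and no binding.

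Other nuclear genes for mitochondria were counted in the same way. The share of all protein-coding genes covered was 17.4% in R100 and 13.3% in R500. Of 17 mitochondrial aminoacyl-tRNA synthetase genes, which charge the organelle's transfer RNAs, 0, 2, 0, 0 and 0 were covered in the parental, R100, R500, R1000 and R4000 lines (11.8% in R100), led by Mars2 with 0, 250, 50, 0 and 50 bp. Of 18 translation and transcription factor genes, 0, 2, 0, 0 and 0 were covered (11.1% in R100), namely the elongation factor genes Gfm1 and Tsfm, each with 250 bp in R100 and none elsewhere. Of 7 further mitochondrial ribosome genes with other symbols, 0, 2, 0, 0 and 0 were covered (28.6% in R100), namely Aurkaip1 and Dap3, with 250 and 150 bp in R100. These lists are small. Their intervals in R500 ended at 18.4, 17.6 and 35.4%, so each held the share of all protein-coding genes. Nuclear genes for subunits of respiratory complex I, other subunits of which the mitochondrial ribosome makes, were covered at 0, 9, 2, 0 and 0 of 38 entries (23.7% in R100). The entries hold Ndufb8 under a pair of identifiers and the paralog Ndufa4l2. Ndufs1, which carries iron-sulfur clusters, led with 50, 600, 250, 100 and 50 bp. R100 held the most covered genes in each of these lists, as it did for all protein-coding genes.

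Among cytosolic genes, Rpl10a had 350, 1250, 1200, 750 and 600 bp, Rpl12 had 600, 950, 1250, 750 and 500 bp, and Rpl31 had 300, 800, 1100, 850 and 300 bp. Rpl3, with the sequence above, had 250, 850, 700, 900 and 600 bp, and Rpl27a had 150, 950, 900, 250 and 650 bp. In the parental, R100 and R4000 lines each of the 5 exceeded the coverage of every Mrpl and Mrps gene, whereas in R500 Mrps18b exceeded Rpl3 and in R1000 it equalled Rpl27a. Cytosolic ribosomal genes have many processed copies in the genome, and how reads that match several places were counted is not given in the sources used here.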

How the data were processed

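H3K27me3 ChIP-seq peak lists of 5 lines were used, each matched to its line by its label. Methylation, expression and genome sequence data were not used here. For ChIP-seq the authors obtained 50-bp reads on an Illumina HiSeq 2000 and called peaks against input in windows tiling the genome with Poisson statistics. The submitters' processing notes name Bowtie and mm9. The study describes replicate ChIP-seq experiments and a p-value limit for its own promoter calls, but whether the deposited lists pool replicates or use that limit is not given in the sources used here. The values the authors deposited are chromosome, start and end positions in bp, with no count or score, so depth is unknown. Starts and ends lie on a grid of 50 bp, and each peak stands 2 times in the R100 and R500 lists, where distinct peaks were kept.

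Covered bases were counted from 2 kb before to 2 kb after the TSS, taken as the 5′ end of the gene in the GENCODE annotation. A promoter was covered with at least 150 bp, which is 3 bins. The study also asked for 3 bins, but only in the 5 kb before the TSS. The window used here differs in that it includes bases after the TSS. The count was tested on simulated data base by base, and 0 of 1000 windows differed. Python 3.11.15, numpy 2.4.6, pandas 2.3.3, scipy 1.17.1, pysam 0.24.0 and matplotlib 3.10.9 were used. Genes were named if covered in the parental line or in all 5 lines (none were), among the 12 with the most bases, the 5 with the longest peak, the 5 with the most bases in R1000 and R4000 among those not covered in R100, or with a peak over the TSS in all 5 lines (none), and for contrast the 5 cytosolic genes with the most bases and the leading genes of the other lists. Others named, such as the members of a count, Mrps18a, Mrps18c, Mrps33 and Mrps9, were chosen after their values were seen, as were the sequences shown and the comparison of shared bases. The genes and lists were chosen with earlier results of these data known. Alternatives covered the window, the covered length, peak width, number of peaks, the TSS used and neighbouring genes.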

Additional observations from a re-analysis of the deposited data

How the results depend on the processing

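The counts of covered Mrpl and Mrps genes moved most with the covered length required. With any covered base, R100 had 38, R500 24, R1000 13, R4000 10 and the parental line 1, with 43 genes newly counted in R100, R500 or both against the parental line, and 1 in all 5 lines. Of all protein-coding genes 5.02% had a base in all 5 lines. Under that rule 42 cytosolic genes were newly counted, and the shares of both sets were 55.8 and 55.3%, against 24.5% of all protein-coding genes. The 27 cytosolic genes and 1 Mrpl or Mrps gene with a base in the parental line could not be newly counted. With at least 500 bp, R100 had 2, R500 1, R1000 0 and R4000 0, with 2 newly counted. Of all protein-coding genes, 7.56, 6.81, 2.85 and 1.92% were covered in these lines and 6.11% were newly counted. The shares of Mrpl and Mrps genes, 2.60% in R100 and 1.30% in R500, were thus the smaller under that rule. With peaks of at least 500 bp only, the Mrpl and Mrps counts were 1, 1, 0, 0 and 2 in the same order. The shares of all protein-coding genes were 5.29, 4.78, 1.62, 1.03 and 5.01%. With peaks of at least 100 bp only, R1000 had 1, against 6.36% of all protein-coding genes. In the 5 kb upstream of the TSS the counts were 5 in R100, 2 in R500, 1 in R4000 and 5 newly counted. The shares of all protein-coding genes were 9.13, 8.16, 2.73 and 7.57%. With 1 kb on each side the counts were 1 in R1000 and 1 in R4000, against 5.68 and 4.64% of all protein-coding genes. A further alternative kept only the 6820 widest peaks of every list, as many as R4000 holds. The counts were then 9 in R100, 2 in R500, 1 in R1000 and 10 newly counted. The shares of all protein-coding genes were 11.8, 10.3, 6.44 and 9.12%, and 49 cytosolic genes were covered in R100. Without peaks nearer to another gene the counts were 1 in R1000 and 1 in R4000, against 6.43 and 5.07% of all protein-coding genes. Counting from any annotated transcript start changed no count. No paired analysis was possible because each line has 1 list and no test was run. Unknown depth limits every comparison of the number and width of peaks between lines.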
